A study of Mus musculus with 3 samples.

Results

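The genes described here are 8 that serve bone-forming cells: *Runx2* and *Sp7*, *Alpl* and *Phospho1*, *Ibsp*, *Spp1* and *Bglap*, and *Pth1r*. They were chosen by symbol from the 31053 genes of a droplet RNA sequencing study, and each symbol stood for 1 gene in the files. The study examined heterotopic ossification, the formation of cartilage and then bone in soft tissue, in masses that grew around Matrigel placed under the skin of female CD-1 mice aged 6 to 8 weeks. Masses were removed on day 5 and digested with dispase, and the cells of each group gave 1 library. The Matrigel-only group received a gel without added protein and no oral agent. The Vehicle group received a gel with recombinant human BMP2 (rhBMP2), a growth factor that induces cartilage and bone at the site of implantation, and oral corn oil with DMSO for 5 days. The Palo group received the same rhBMP2 gel and oral palovarotene, a retinoic acid receptor gamma agonist, at 4 mg/kg for 5 days. Vehicle and Matrigel-only therefore differed both in rhBMP2 and in the oral carrier, whose effects cannot be told apart here. Cells of several masses were pooled, so 1 library stood for each group. Differences between groups could therefore not be set against a spread between replicates, and none was tested. Every interval below is a 95% interval that covers counting error only.

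In bone formation through cartilage, mesenchymal cells first make a cartilage model. Its oldest chondrocytes enlarge and begin to mineralise the matrix, and bone-forming osteoblasts follow. RUNX2 is the transcription factor that commits cells to the osteoblast and hypertrophic chondrocyte fates, and SP7, also called osterix, acts downstream of it. ALPL, tissue-nonspecific alkaline phosphatase, and PHOSPHO1, a phosphatase of matrix vesicles, supply phosphate for mineral. IBSP (bone sialoprotein) and SPP1 (osteopontin) are acidic matrix proteins, BGLAP (osteocalcin) is a late osteoblast product, and PTH1R is the receptor for parathyroid hormone and its related protein. Several of these genes are not particular to osteoblasts: *Ibsp*, *Alpl*, *Spp1* and *Pth1r* are also known from maturing chondrocytes, and *Spp1* from macrophages.

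RUNX2 binds a core motif, TGTGGT or ACCACA on the other strand. Bases upstream of the RefSeq start sites, 250 per window (GRCm38.p6), were available for 7 of the 8 genes, in 11 windows. The motif stood in 1 window each of 3 genes, *Runx2*, *Spp1* and *Bglap*, while 14.0% of the 32851 promoters of the same length held it on either strand. The homeodomain core TAATTA, searched in the same way, stood in 1 window of 1 gene, *Spp1*, against 4.84% of promoters. A match is a description of letters and not a binding site. The windows of the gene with the largest difference between libraries (*Ibsp*), of the gene also found in macrophages (*Spp1*) and of the gene close to 0 UMIs throughout (*Bglap*) are shown with the RUNX core in capitals. They are chr5:104299037-104299286 on the + strand for *Ibsp*, which lacked the core, chr5:104434861-104435110 on the + strand for *Spp1*, with the core beginning 128 bases before the start, and chr3:88384467-88384716 on the - strand for *Bglap*, with the core beginning 132 bases before the start.
Ibsp: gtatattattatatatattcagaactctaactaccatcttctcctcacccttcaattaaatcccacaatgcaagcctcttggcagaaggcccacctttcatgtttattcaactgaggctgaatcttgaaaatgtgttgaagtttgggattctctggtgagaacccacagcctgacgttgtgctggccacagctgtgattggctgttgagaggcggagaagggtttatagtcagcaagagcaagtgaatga
Spp1: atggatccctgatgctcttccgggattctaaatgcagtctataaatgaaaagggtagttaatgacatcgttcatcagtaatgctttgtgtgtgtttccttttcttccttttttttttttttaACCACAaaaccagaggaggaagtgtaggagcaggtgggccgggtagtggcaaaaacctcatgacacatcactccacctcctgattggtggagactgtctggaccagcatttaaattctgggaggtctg
Bglap: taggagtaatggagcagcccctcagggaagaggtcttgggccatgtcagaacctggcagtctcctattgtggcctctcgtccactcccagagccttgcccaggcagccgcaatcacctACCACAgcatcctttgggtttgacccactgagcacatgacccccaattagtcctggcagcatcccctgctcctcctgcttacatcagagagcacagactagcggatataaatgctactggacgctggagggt
The RefSeq start of *Ibsp* lies inside the gene as the GENCODE annotation places it.

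The libraries held 44252421 UMIs (unique molecular identifiers, each marking 1 captured RNA molecule) on 9249 barcodes for Matrigel-only, 46317250 on 6065 for Vehicle and 46901673 on 7905 for Palo. Between 90.3% and 94.4% of barcodes passed the limits on genes and mitochondrial UMIs. Cells with at least 1% of UMIs from *Col1a1*, *Col1a2*, *Col3a1*, *Dcn* and *Lum* were called stromal, 2085 in Matrigel-only, 1184 in Palo and 1373 in Vehicle. Of the rest, those with a *Csf1r* or *C1qa* UMI were called macrophages, 5812, 5661 and 3253 cells in the same order. All 10 fibroblast markers were found in at least 10% of stromal cells of every library, and all 10 macrophage markers in at least 10% of macrophages. Levels are given in CPM, the UMIs of a gene scaled to a class total of 1000000. The macrophage markers summed to 936 CPM in Matrigel-only, 307 CPM in Vehicle and 769 CPM in Palo stromal cells. In macrophages they summed to between 20104 and 25927 CPM. *Csf1r* and *C1qa*, which defined the macrophage class, are among these 10 markers, so this count and these sums partly restate the rule. The stromal class of the Vehicle library also held the chondrocytes: 14 of 16 chondrocyte markers were in at least 10% of its cells, against 1 and 3 in Matrigel-only and Palo. Stromal cells had a median of 17114 UMIs in Vehicle, 12955 in Palo and 9082 in Matrigel-only, so shares of cells with a UMI are given after each cell was thinned to 3100 UMIs. Pairs of libraries shared between 11 and 21 barcodes, and at most 1 of them was stromal in both.

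Of the 8 genes, 6 were higher in Vehicle stromal cells than in those of either other library, by more than counting error. The share of all genes that differed by more than counting error was not computed, so this count has no background beside it. *Ibsp*, *Alpl* and *Sp7* had few or no UMIs without rhBMP2 or under palovarotene, *Spp1* and *Pth1r* were 4 to 6 times higher in Vehicle over a level present in all libraries, and *Runx2* was the least different. *Phospho1* and *Bglap* stayed at or near 0 everywhere. On the log2 scale of CPM with 5 CPM added, 6 of the 8 genes had a mean of at least 5 CPM over the libraries, and all 6 were more than 2-fold higher in Vehicle than in Matrigel-only stromal cells. *Ibsp*, *Alpl* and *Sp7* passed the filter only through their Vehicle level, so for these 3 the direction was set by the filter. Of the 10311 genes past the same filter, 3.35% were higher and 7.09% lower. In Vehicle against Palo it was 5 of the 8, all but *Runx2*, where 3.28% of all genes were higher and 4.47% lower. None of the 8 was lower past 2-fold in either. In Palo against Matrigel-only it was 0 of the 8 in either direction, where 0.272% of all genes were higher and 0.873% lower. *Ibsp*, *Alpl* and *Sp7* were under 5 CPM in both these libraries, where adding 5 CPM keeps any ratio under 2-fold. *Phospho1* and *Bglap* did not pass the filter, so this count rests on *Runx2*, *Spp1* and *Pth1r*. The 2 comparisons with Vehicle share its library.

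**Figure D1:**
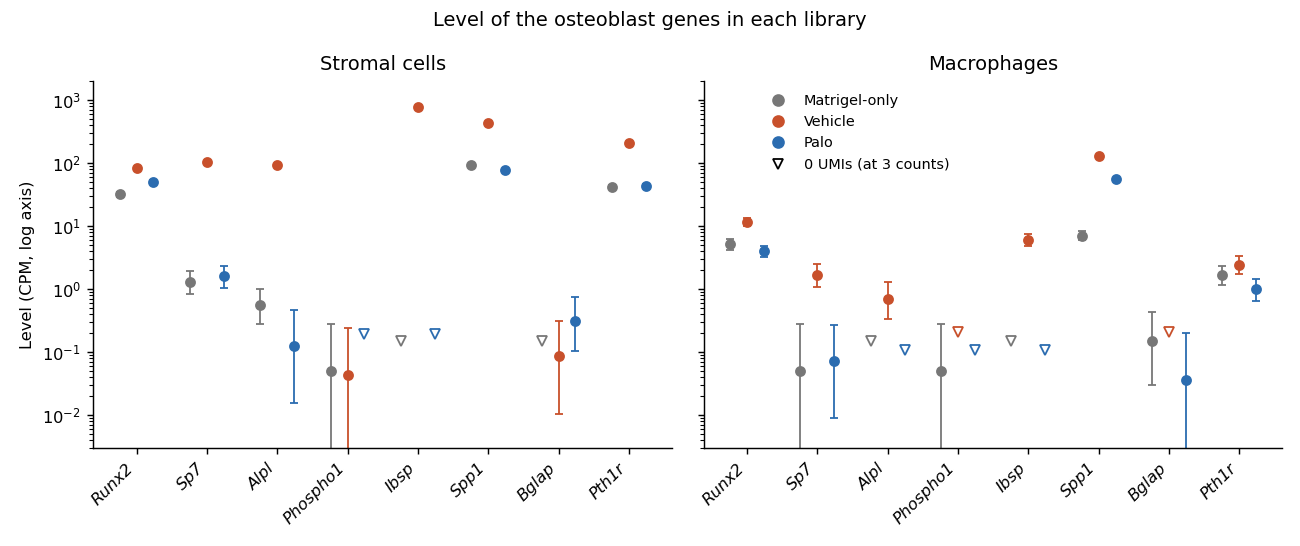
Level of each gene in CPM (log axis) in stromal cells and in macrophages of the 3 libraries, with exact Poisson 95% intervals; open triangles stand at the level of 3 counts where a gene had 0 UMIs. In stromal cells the Vehicle points lie above the others for 6 genes, with *Ibsp* at 765 CPM in Vehicle and 0 UMIs elsewhere, while in macrophages *Spp1* lies highest in Vehicle (129 CPM) and next in Palo (54.8 CPM).

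**Figure D2:**
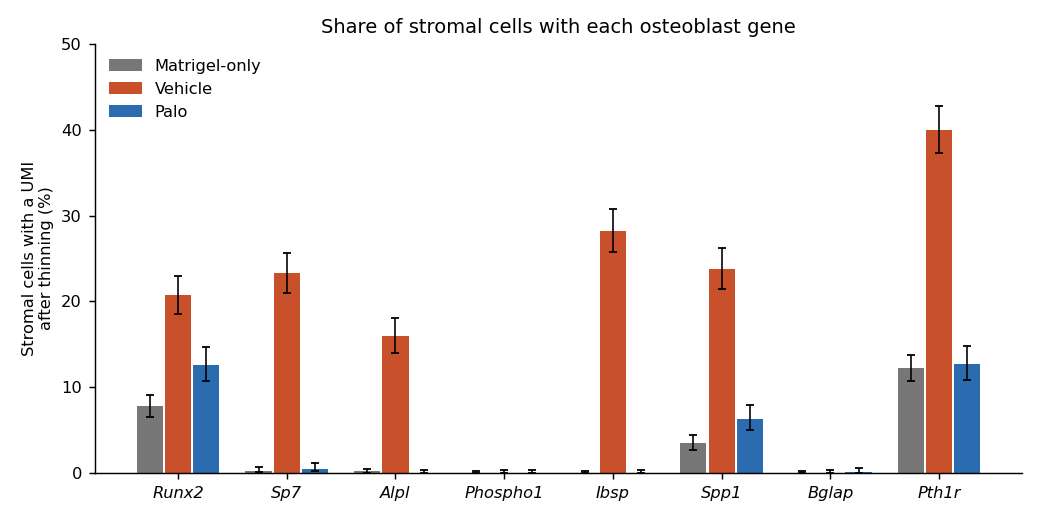
Percentage of stromal cells with at least 1 UMI of each gene after thinning to 3100 UMIs per cell, with exact binomial 95% intervals. Vehicle bars reach from 15.9% (*Alpl*) to 40.02% (*Pth1r*) for 6 genes, and only *Runx2*, *Spp1* and *Pth1r* have bars above 1% in the other libraries.

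Among the transcription factors, *Runx2* (chromosome 17, 44495987 to 44814797, - strand, mm10) stood at 31.8 CPM in Matrigel-only, 82.6 CPM in Vehicle and 49.6 CPM in Palo stromal cells. It was thus already present without rhBMP2, highest in Vehicle and intermediate in Palo, and the 3 intervals did not overlap. The Vehicle level was 2.60-fold (2.38 to 2.85) that of Matrigel-only and 1.67-fold (1.53 to 1.81) that of Palo, and Palo was 1.56-fold (1.40 to 1.74) Matrigel-only. The thinned share of cells with *Runx2* was 7.74%, 20.7% and 12.6% in the same order.

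*Sp7* (chromosome 15, 102356606 to 102367182, - strand) was at 1.30 CPM in Matrigel-only, 102 CPM in Vehicle and 1.58 CPM in Palo. Its 26 Matrigel-only UMIs lay in 15 cells, 8 of them in 1 cell, and its 25 Palo UMIs in 20 cells, so both other libraries were close to the limit of detection. The Vehicle level was 78.7-fold (53.6 to 121) that of Matrigel-only and 64.7-fold (43.7 to 100.1) that of Palo. Without stromal cells that had a *Ptprc*, *Csf1r* or *C1qa* UMI, the ratio to Matrigel-only was 159-fold. Palo and Matrigel-only were not distinguishable (1.22-fold, 0.674 to 2.19). In Vehicle *Sp7* was spread over many cells: 23.3% of thinned cells had it, and the 10 cells with most held 5.23% of its UMIs. In Palo, 0.509% of thinned cells had *Sp7* while 12.6% had *Runx2*.

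The 2 mineral phosphatase genes differed. *Alpl* (chromosome 4, 137741733 to 137796384, - strand) had 2155 UMIs in Vehicle, 11 in Matrigel-only and 2 in Palo stromal cells, or 91.3, 0.549 and 0.126 CPM. Vehicle was 166-fold (92.9 to 334) above Matrigel-only and 723-fold above Palo, where the interval of 199.9 to 5975 reflects the 2 UMIs. The ratio to Matrigel-only was 96.8-fold with the mean of single-cell CPM. It was found in 15.9% of thinned Vehicle cells and had a median of 3 UMIs and up to 62 UMIs in the cells with any. *Phospho1* (chromosome 11, 95824499 to 95832140, + strand) had 1, 1 and 0 UMIs, so no ratio was formed. Of its 100-base stretches, 82.2% also occur in a transcript annotated to *Zfp652*, on the same strand, so its counts are uncertain where reads could not be assigned to 1 gene.

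Of the matrix proteins, *Ibsp* (chromosome 5, 104299171 to 104311469, + strand) showed the sharpest contrast. It had 0 UMIs in 2085 Matrigel-only and 1184 Palo stromal cells and 18040 UMIs in 521 of the 1373 Vehicle cells, a level of 765 CPM (754 to 776). With 3 counts per library as the floor, Vehicle was at least 5110-fold above Matrigel-only and at least 4036-fold above Palo. A count of 0 allows a share of up to 0.144% of Matrigel-only and 0.253% of Palo stromal cells with an *Ibsp* UMI. In Vehicle the cells with *Ibsp* had between 1 and 595 UMIs of it with a median of 11, and 111 cells had at least 50.

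*Spp1*, on the same strand of the same chromosome (chromosome 5, 104435118 to 104441050, + strand), behaved differently. It was at 92.7 CPM in Matrigel-only, 428 CPM in Vehicle and 76.9 CPM in Palo stromal cells, so it was present in every library and 4.61-fold (4.39 to 4.85) and 5.56-fold (5.24 to 5.90) higher in Vehicle. Its UMIs were concentrated in few cells: the 10 cells with most held 58.3% of them in Matrigel-only, 50.6% in Palo and 24.9% in Vehicle. Without those 10 cells per library, left out after the values had been seen, the levels were 39.0, 38.4 and 324 CPM in that order. Between Palo and Matrigel-only the sum and the share of cells did not point the same way. The level in Palo was 0.830-fold (0.771 to 0.892) that of Matrigel-only, while the thinned share was 6.34% against 3.51%, a difference of 2.82 points (1.24 to 4.56).

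*Bglap* (chromosome 3, 88383501 to 88384464, - strand), the late osteoblast gene, had 5 UMIs in Palo, 2 in Vehicle and 0 in Matrigel-only stromal cells. Its near copies *Bglap2* and *Bglap3*, which share 38.7% of the 100-base stretches of its transcripts, had 0, 0 and 1 UMIs and 5, 1 and 2 UMIs in the same libraries. All 3 were at or under the floor in Vehicle. Their counts are uncertain too, since reads that fit more than 1 copy may not have been counted for any.

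*Pth1r* (chromosome 9, 110722085 to 110747145, - strand) was at 41.2 CPM in Matrigel-only, 211 CPM in Vehicle and 43.3 CPM in Palo. The Vehicle level was 5.12-fold (4.75 to 5.52) and 4.87-fold (4.50 to 5.29) that of the other libraries, and Palo and Matrigel-only were not distinguishable (1.05-fold, 0.948 to 1.16). It had the highest share of the 8 genes in Vehicle, 40.02% of thinned cells, against 12.2% and 12.7%. Without thinning, 75.7% of Vehicle cells held a UMI of it.

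Vehicle cells held more of these genes at once, a count that rises with the shares of the single genes above. The count expected from those shares alone was not computed. After thinning, 43.7% of Vehicle cells had at least 2 of the 8 genes and 21.4% at least 3, while in Matrigel-only 2.34% and 0.213% did and in Palo 3.72% and 0.177%. None of the 8 was seen in 24.8% of Vehicle, 78.5% of Matrigel-only and 69.3% of Palo cells.

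The rest of the bone program was followed with lists of further genes. Of 12 osteoblast regulators, 7 passed the level filter in stromal cells and 2 were more than 2-fold higher in Vehicle than in Matrigel-only. They were *Cbfb*, the partner subunit of RUNX2, at 156 against 67.0 CPM, and *Mef2c*, also a hypertrophic chondrocyte regulator, at 152 against 63.3 CPM. *Twist1*, a repressor of RUNX2 function, was 0.584-fold Matrigel-only and 0.444-fold Palo. Of 10 other bone matrix genes 4 passed the filter, 0 were higher and 2 were lower than in Matrigel-only, *Ogn* (220.0 against 1021 CPM) and *Mgp*, an inhibitor of mineralisation (111 against 245 CPM). Of 8 mineralisation genes 7 passed, and 3 were higher: *Vdr*, the vitamin D receptor (23.7 against 2.84 CPM), and the pyrophosphate suppliers *Ank* (64.0 against 19.5 CPM) and *Enpp1* (79.4 against 34.4 CPM). *Fam20c*, the kinase of secreted matrix proteins, was lower (9.03 against 23.9 CPM). The median log2 ratio was 0.20 for the regulators, -0.61 for the matrix genes and 0.26 for the mineralisation genes, beside -0.04 over all genes.

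Most listed genes of osteocytes, the cells buried in bone, were nearly absent. Of the 7 listed, 2 passed the filter, *Pdpn* and *Irx5*. Among the others, *Dmp1* had 5 UMIs in Vehicle, *Mepe* 9, *Phex* 8 and *Sost* 0. *Pdpn*, which fibroblasts express too, was lower in Vehicle (44.0 against 139 CPM). *Irx5* was higher in Vehicle than in Matrigel-only, by less than 2-fold (log2 ratio 0.73 with 5 CPM added). Among 6 markers of hypertrophic chondrocytes 4 passed and 3 were more than 2-fold higher in Vehicle than in Matrigel-only. *Panx3*, a channel of maturing chondrocytes and osteoblasts, had 699 UMIs in Vehicle, 0 in Matrigel-only and 1 in Palo, and *Mmp13*, the collagenase of hypertrophic cartilage, had 601, 3 and 19. *Col10a1*, the defining collagen of that state, had 5 UMIs in Vehicle and *Ihh* had 3. *Panx3*, *Mmp13* and, above, *Vdr* passed the filter only through Vehicle. Of 16 chondrocyte genes, *Sox9* (461 against 53.5 CPM), *Sox5* (41.5 against 11.8 CPM) and *Col11a1* (958 against 19.9 CPM) were above 5 CPM in every library, and the others that passed did so only through Vehicle. Against Palo, 1 regulator was higher (*Mef2c*) and 1 lower (*Twist1*), and 1 matrix gene was lower (*Ogn*). The same 3 mineralisation genes were higher and *Fam20c* lower, and 4 hypertrophic genes were higher, now with *Vegfa* (292 against 72.8 CPM). *Vegfa* was more than 2-fold lower in Palo than in Matrigel-only and not past 2-fold between Vehicle and Matrigel-only.

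The overlap with *Acan*, which encodes the cartilage proteoglycan aggrecan, split the genes of the Vehicle library into groups. *Acan* had 1 UMI in the stromal cells of Matrigel-only and 13 in those of Palo, so overlap could be described in Vehicle alone. After thinning, *Acan* was found in the following shares of the cells with each of the 6 detected genes: 80.4% for *Alpl*, 76.4% for *Ibsp*, 69.2% for *Pth1r*, 58.7% for *Sp7*, 52.0% for *Spp1* and 51.6% for *Runx2*. Of all 1303 thinned cells, 655 were expected to show *Acan*, so the last 2 shares were close to that of the library as a whole.

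Read the other way, *Pth1r* was in 55.1% of cells with *Acan* and 24.7% of cells without, a difference of 30.4 points (25.2 to 35.3). For *Ibsp* it was 42.9% and 13.4% (29.5 points, 24.8 to 34.0) and for *Alpl* 25.5% and 6.28% (19.2 points, 15.4 to 23.0). *Sp7* differed less, at 27.2% and 19.3% (7.87 points, 3.28 to 12.4). For *Runx2*, at 21.2% and 20.2% (1.07 points, -3.33 to 5.46), and *Spp1*, at 24.6% and 22.9% (1.66 points, -2.97 to 6.27), no difference was detectable. Cells with an *Acan* UMI were thus more often positive for *Pth1r*, *Ibsp*, *Alpl* and *Sp7*. Without thinning *Runx2* was also found more often in cells with *Acan* (65.0% against 53.5%; 11.4 points, 6.18 to 16.6).

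**Figure D3:**
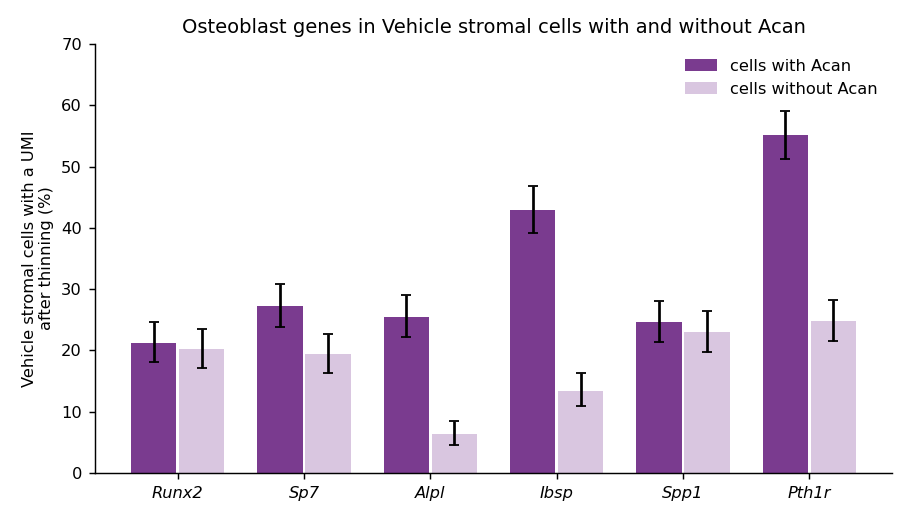
Percentage of Vehicle stromal cells with each gene after thinning to 3100 UMIs, in cells with and without an *Acan* UMI, with exact binomial 95% intervals. The pairs of bars stand apart for *Alpl*, *Ibsp* and *Pth1r*, less so for *Sp7*, and overlap for *Runx2* and *Spp1*.

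The same split showed along the level of *Acan*. From Vehicle cells without *Acan* (594 cells) through cells under 300 CPM (124), from 300 to 1000 (149), from 1000 to 3000 (286) and of at least 3000 CPM of *Acan* (220), the *Ibsp* level was 281, 342, 949, 1214 and 1541 CPM. *Alpl* went from 27.5 through 67.9, 93.2 and 143 to 198 CPM, and *Pth1r* from 94.5 through 121, 197 and 327 to 419 CPM. All 3 were higher at each step. *Sp7* stayed between 87.2 and 123 CPM with no steady order, and *Runx2* and *Spp1* were lowest where *Acan* was highest, at 64.2 and 346 CPM against 83.5 and 444 CPM in cells without *Acan*.

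**Figure D4:**
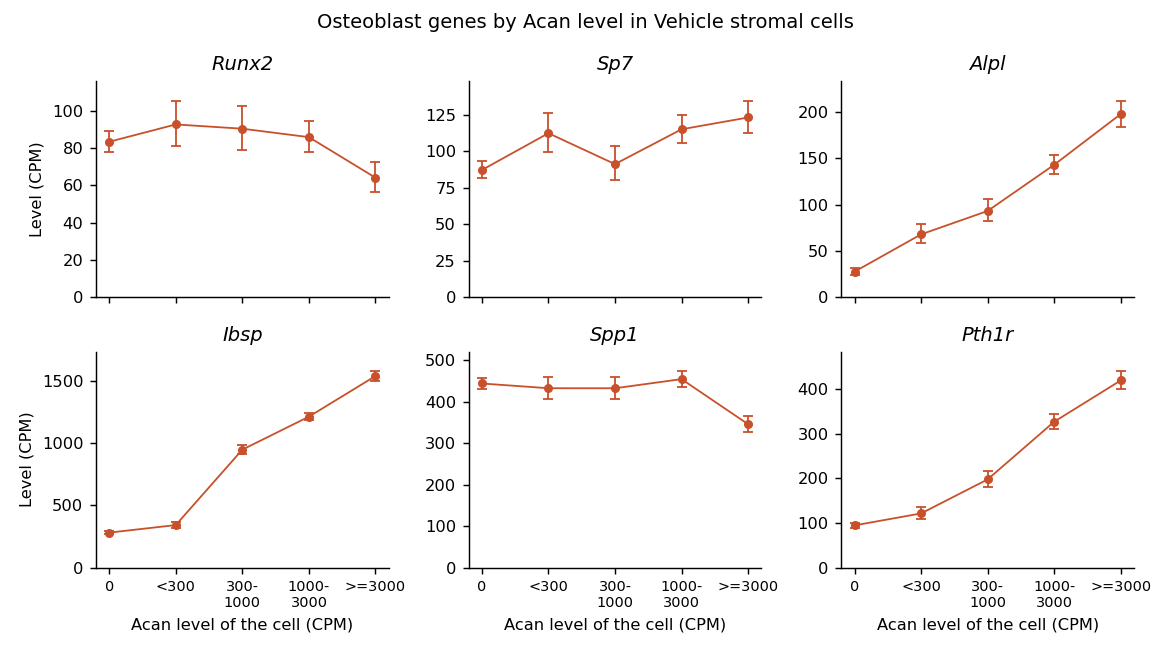
Level of 6 genes (CPM, separate linear axes from 0) in Vehicle stromal cells grouped by their *Acan* level, with exact Poisson 95% intervals. *Alpl*, *Ibsp* and *Pth1r* are higher in each group than in the one before, while *Runx2* and *Spp1* are lowest in the last group (64.2 and 346 CPM).

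*Col2a1*, the main cartilage collagen, gave a like picture. *Ibsp* was in 52.9% of cells with *Col2a1* and 19.9% of cells without, *Pth1r* in 62.5% and 32.4% and *Alpl* in 25.4% and 12.7%, whereas *Runx2* was in 18.5% and 21.4%. Cells with *Pi16*, a fibroblast marker, less often had each of the 6. *Sp7* was in 2.40% of them against 25.1% of the others, *Ibsp* in 3.09% against 30.4%, *Alpl* in 2.05% against 17.1% and *Spp1* in 4.47% against 25.4%. *Pth1r* was still found in 18.7% of them, against 41.9% of the others, and its level in the 167 cells with any *Pi16* UMI before thinning was 104 CPM, above the stromal level of the other libraries.

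Cells without an *Acan* UMI still differed between libraries. In the 594 such Vehicle cells *Sp7* was at 87.2 CPM, 67.2-fold the level of Matrigel-only cells without *Acan*, *Alpl* was at 27.5 CPM, 50.1-fold, and *Ibsp* at 281 CPM, at least 1880-fold. *Spp1* was 4.79-fold, *Runx2* 2.63-fold and *Pth1r* 2.29-fold higher. For *Sp7*, *Spp1* and *Runx2* these folds were close to those in all stromal cells. For *Pth1r* the fold was 2.29 in place of 5.12 and for *Alpl* 50.1 in place of 166. The *Ibsp* level was 281 CPM in place of 765 CPM, and its lower bound 1880-fold in place of 5110-fold. A cell with 0 *Acan* UMIs may still express the gene, and among these cells the 203 that also lacked *Sox9*, the master transcription factor of cartilage, had 41.9 CPM of *Ibsp* and 6.33 CPM of *Alpl*, while the 391 with *Sox9* had 366 and 35.0 CPM. *Sp7* was at 66.9 and 94.4 CPM and *Spp1* at 365 and 472 CPM in the same cells. So in cells with neither *Acan* nor *Sox9*, which had a median of 12489 UMIs against 18052, the levels of *Ibsp* and *Alpl* were the ones most reduced.

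Pairs of the 8 genes were compared in the same thinned Vehicle cells. Where pairs are split by *Acan*, the cells were grouped by an *Acan* UMI before thinning, 761 with and 542 without, unlike in the overlap above. *Ibsp* with *Alpl* were seen together 1.65 times as often as the product of their shares, *Ibsp* with *Spp1* 1.56 times, *Ibsp* with *Pth1r* 1.497 times and *Alpl* with *Pth1r* 1.47 times. *Sp7* exceeded the product with *Alpl* (1.38), *Runx2* (1.24), *Ibsp* (1.22) and *Pth1r* (1.20). Among cells with *Acan*, however, the share of cells with *Sp7* did not differ detectably with *Alpl* (6.76 points, -0.62 to 14.6), *Runx2* (4.09 points, -3.39 to 12.3) or *Ibsp* (2.54 points, -3.83 to 9.10), while among cells without *Acan* all 3 differences were above 0. *Alpl* with *Spp1* did not (1.02), nor did *Runx2* with *Pth1r* (1.03). Thus *Ibsp* was paired both with *Alpl* and with *Spp1*, while *Alpl* and *Spp1* were not paired with each other. *Alpl* with *Ibsp* differed among cells with *Acan* (10.6 points, 4.33 to 16.9) but not detectably among those without (5.48 points, -0.08 to 15.0). The pairing of *Ibsp* and *Spp1* was present in both strata of *Acan*. Among cells without *Acan*, *Ibsp* was in 29.2% of those with *Spp1* and 7.50% of those without (21.7 points, 13.8 to 30.4), and among cells with *Acan* in 54.1% and 34.8% (19.3 points, 11.1 to 27.3). These shares come from cells of 1 library and describe that library.

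Levels in Vehicle cells with a UMI of each gene were set over those in cells without, as ratios of CPM with 5 CPM added. Genes lower in the cells with a UMI were not listed. A fixed rule named the 5 genes with the largest ratios. For *Ibsp* (521 cells) they were *Mmp13* (6.12), *Hapln1* (5.86), *Comp* (4.99), *Col9a1* (4.76) and *Pcp4* (4.68), of which *Hapln1*, *Comp* and *Col9a1* are cartilage matrix genes. For *Alpl* (457 cells) they were *Slpi* (6.58), *Cd24a* (4.04), *Hapln1* (3.80), *Ibsp* (3.63) and *Mmp13* (3.58). For *Pth1r* (1039 cells) they were *Col11a2* (8.82), *3110079O15Rik* (8.58), *Ibsp* (7.30), *Slpi* (6.24) and *Hapln1* (5.99). *Hapln1* was among the 5 for all 3 genes.

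For *Sp7* (793 cells) the leading genes were *Hbb-bs* (3.30), *Pcp4* (2.98), *Fgfr3* (2.82), *Klk4* (2.61) and *Inhba* (2.47), and for *Runx2* (824 cells) *Hbb-bs* (3.16), *Inhba* (2.58), which encodes the activin A subunit, *Aqp1* (2.55), *Enpp1* (2.30) and *Pappa* (2.24). For *Spp1* (514 cells) they were *Hbb-bs* (5.88), *Hba-a1* (2.37), *Ibsp* (2.36), *Enpp1* (1.82) and *Gm10320* (1.81). *Hbb-bs* is a globin gene of red cells, and cells with a UMI of *Sp7* had a median of 19120 UMIs against 13418 in cells without. After thinning, 32.6 Vehicle cells were expected to show *Hbb-bs*. The shares with *Sp7* (0.89 points, -10.8 to 17.9), *Runx2* (0.60 points, -10.2 to 17.4) and *Spp1* (0.62 points, -11.1 to 17.7) then did not differ detectably with *Hbb-bs*. The part of depth in these ratios was not tested.

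*Panx3* and *Mmp13*, the 2 hypertrophic genes with the largest differences, were used as further partners. *Ibsp* was in 57.4% of thinned Vehicle cells with *Panx3* and 25.9% of those without (31.5 points, 21.2 to 41.2), *Pth1r* in 66.0% and 37.9% (28.1 points, 17.8 to 37.2) and *Alpl* in 32.8% and 14.6% (18.3 points, 9.43 to 28.3). *Sp7* differed less, at 31.5% and 22.6% (8.84 points, 0.07 to 18.9). *Runx2* (19.4% and 20.8%) and *Spp1* (26.0% and 23.6%) did not differ detectably. Of 96.2 thinned cells expected to show *Panx3*, 93.3 were among those with an *Acan* UMI before thinning. Among the latter the differences with *Panx3* were smaller: 20.5 points (9.69 to 30.7) for *Ibsp*, 16.6 points (5.84 to 26.1) for *Pth1r* and 10.6 points (1.31 to 21.1) for *Alpl*. There *Sp7* did not differ detectably (5.36 points, -3.86 to 15.9). With *Mmp13*, which about 33 thinned cells were expected to show, *Ibsp* reached 75.4% against 27.0% and *Spp1* 44.0% against 23.3% (20.8 points, 5.11 to 37.6). *Pth1r* differed by 17.4 points (0.42 to 33.0), though not detectably in either stratum of *Acan* alone. *Alpl* (11.9 points, -0.54 to 29.1), *Sp7* (3.58 points, -8.76 to 20.7) and *Runx2* (1.92 points, -9.28 to 18.8) did not differ detectably with *Mmp13*. Among cells with an *Acan* UMI before thinning, *Spp1* did not differ detectably with *Mmp13* (9.63 points, -6.97 to 31.2). Among those without it did (39.8 points, 12.5 to 61.2), though only 12.0 of them were expected to show *Mmp13*. Taken over all Vehicle stromal cells, *Spp1* therefore went with *Mmp13* and *Ibsp* but, at this depth, not with *Panx3*, *Alpl* or *Acan*.

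In macrophages only *Runx2* and *Spp1* had a mean of at least 5 CPM. With 5 CPM added, the log2 ratio of Vehicle over Matrigel-only was 0.71 for *Runx2*, under 2-fold. On that scale *Spp1* alone was more than 2-fold higher in Vehicle, where 2.49% of 9551 genes were higher and 1.17% lower. It stood at 7.02 CPM in Matrigel-only, 129 CPM in Vehicle and 54.8 CPM in Palo, so the order differed from that in stromal cells: Palo was well above Matrigel-only. The Vehicle level was 18.4-fold (15.5 to 21.9) that of Matrigel-only, and the Palo level 7.81-fold (6.57 to 9.34). On the scale with 5 CPM added it passed 2-fold in Palo against Matrigel-only too, where 0.408% of all genes did and 0.639% were lower. In Vehicle against Palo it was 2.24-fold on that scale, where 3% of all genes were higher and 0.879% lower past 2-fold, but 1.97-fold with TMM factors and 2.00-fold with median-of-ratios factors, both just under the limit. The share of macrophages with *Spp1*, thinned to 1400 UMIs, was 9.04% in Vehicle, 5.20% in Palo and 0.811% in Matrigel-only. Stromal cells thinned to that depth had it in 17.6%, 4.16% and 2.57%, in the same order. Before thinning, macrophages had a median of 3646, 4254 and 3090.5 UMIs, again in that order.

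RNA released from one cell type can be counted in another. In the Vehicle library the macrophage level was 0.783% of the stromal level for *Ibsp*, 0.763% for *Alpl*, 1.16% for *Pth1r* and 1.64% for *Sp7*. For *Acan*, *Col2a1* and *Sox9* it was between 1.09% and 1.32%, and for the fibroblast genes *Prrx1* and *Pdgfra* 1.92% and 2.26%. At 1400 UMIs per cell, *Ibsp* was in 1.05% of macrophages against 22.5% of stromal cells, *Alpl* in 0.0944% against 9.07%, *Sp7* in 0.261% against 11.8%, *Pth1r* in 0.319% against 22.8% and *Runx2* in 1.62% against 10.2%. The 86 *Ibsp* UMIs in Vehicle macrophages lay in 85 cells, with at most 2 in a cell. *Spp1* was at 30.2% (28.7 to 31.7) and *Runx2* at 14.0% (11.9 to 16.4) of the stromal level, well above that range. In Palo *Spp1* in macrophages was at 71.3% of the stromal level, in Matrigel-only at 7.57%, while *Prrx1* was at 0.725% and 1.26%. *Pth1r* and *Sp7* in Vehicle macrophages were thus in the range of these cartilage and fibroblast genes. *Ibsp* (0.626% to 0.968%) and *Alpl* (0.365% to 1.41%) lay below it, though the interval of *Alpl* reached into it. The parts of released RNA, of doublets and of the gate in them were not tested.

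**Figure D5:**
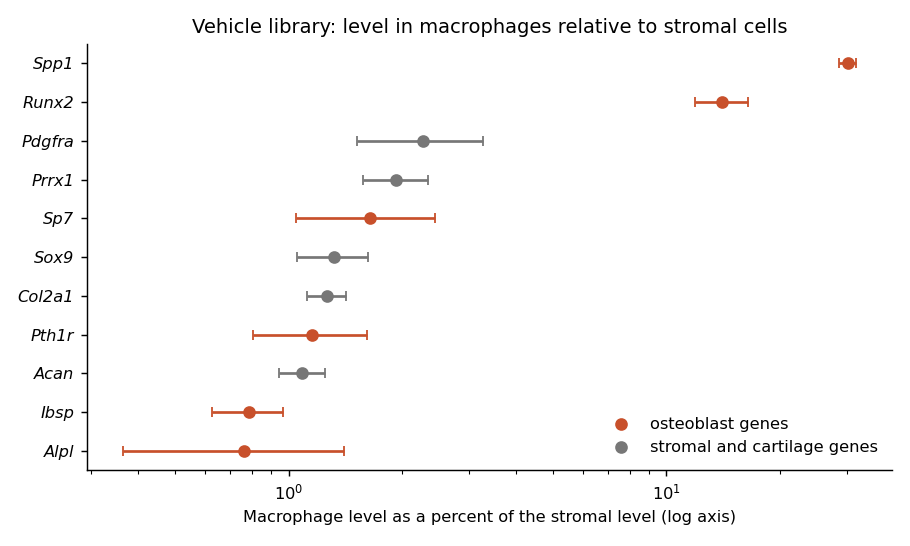
Macrophage level of each gene as a percent of its stromal level in the Vehicle library (log axis), with 95% conditional binomial intervals. *Spp1* (30.2%) and *Runx2* (14.0%) lie to the right of the other osteoblast genes and of the cartilage and fibroblast genes, which lie between 0.763% and 2.26%.

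*Runx2* in macrophages was at 5.16 CPM in Matrigel-only, 11.6 CPM in Vehicle and 3.94 CPM in Palo. Without added CPM it was 2.24-fold (1.75 to 2.89) higher in Vehicle than in Matrigel-only and 2.94-fold (2.29 to 3.78) higher than in Palo. Its 166 Vehicle UMIs lay in 124 cells. Of these UMIs 28.3% were in the 10 cells with most. The gate admits any cell with 1 *Csf1r* or *C1qa* UMI and under 1% stromal UMIs, and markers of several other cell types were higher in Vehicle macrophages than in those of Matrigel-only and Palo. Dendritic cell markers summed to 149 against 57.1 and 65.3 CPM, neutrophil markers to 109 against 40.2 and 34.5 CPM, T and NK cell markers to 48.3 against 4.27 and 4.08 CPM, and basophil and mast cell markers to 28.4 against 0.884 and 1.93 CPM. B cell markers went the other way, at 76.2 against 148 and 104 CPM, and adipocyte markers were below Matrigel-only (0.766 against 9.33 CPM). In the dendritic, the T and NK and the basophil and mast cell lists only 1 gene each passed the level filter (*Cd209a*, *Gzma* and *Mcpt8*). The leading genes of the Vehicle macrophages with *Runx2* were *Mucl1*, *Gzmb*, *Klk1*, *Myod1* and *Ccr9*. The part of other cell types in the *Runx2* level was not tested.

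The cells with *Spp1* among macrophages carried different leading genes in each library. In Matrigel-only (91 cells) *Gpnmb*, a gene of lipid-laden macrophages, led with a ratio of 52.2, followed by *Agt*, *Mfge8*, *Serpinh1* and *Col15a1*. In Vehicle (522 cells) the globin genes *Hbb-bt*, *Hbb-bs* and *Hba-a1* led, followed by *Alox15* (4.70) and the macrophage elastase *Mmp12* (4.35). In Palo (600 cells) the leading genes were the mitotic genes *Cdc20* (2.92), *Ube2c* (2.86), *Cenpf* (2.64) and *Birc5* (2.55), and then *Arg1* (2.48). In the stroma too the company of *Spp1* differed. In Matrigel-only (112 cells) it was *Frem1* (5.95), *Mmp9*, the matrix gene *Tnc* (4.48), *Prkg2* and *Unc5b*, and in Palo (143 cells) it was led by *Mmp12* (7.63), *Ccl9*, *Cd52*, *Ccl6* and *Fcer1g*, genes of myeloid cells. A *C1qa* UMI was in 26.6% of the Palo stromal cells with *Spp1* against 17.2% of all Palo stromal cells, and in Matrigel-only in 24.1% against 15.3%. In Vehicle the shares were 12.1% and 12.2%. The cells with *Spp1* were also deeper, with a median of 16264 UMIs against 12955 in Palo. The part of macrophage RNA in the *Spp1* level was not tested.

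Receptors of osteopontin were the last list. In stromal cells 6 of 7 passed the filter, 0 were more than 2-fold higher and 3 were lower in Vehicle than in Matrigel-only: *Itgb3* (17.8 against 93.6 CPM), *Cd44* (178 against 492 CPM) and *Itgb5* (109 against 235 CPM). In macrophages 6 passed and 0 were past 2-fold in Vehicle over Matrigel-only. Of 10 osteoclast genes, 8 passed in macrophages and 4 were more than 2-fold higher in Vehicle than in Matrigel-only (*Acp5*, *Ctsk*, *Ocstamp* and *Atp6v0d2*), beside 2.49% of all genes. In macrophages the median log2 ratio was 0.71 for the osteoclast list and 0.64 for the receptors, against 0.00 over all genes, and in stromal cells it was -0.54 and -0.83, against -0.04. The median of the 10 macrophage markers in stromal cells was -1.10, and 7 were more than 2-fold lower in Vehicle than in Matrigel-only. The part of macrophage RNA in these stromal values was not tested.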

How the data were processed

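Female CD-1 mice carried subcutaneous Matrigel implants, and day 5 masses of 3 groups were profiled by droplet single-cell RNA sequencing, with 1 library per group. The authors deposited filtered UMI counts per gene and barcode, made with Cell Ranger 3.0.2 on mm10 (the submitters' processing notes also name Seurat version 3). No cell annotation was used. Barcodes with 200 to 6000 genes and up to 5% mitochondrial UMIs were kept, doublets being limited only by the gene maximum. Counts were summed per class and library and divided by the class total (CPM), with exact Poisson intervals. Ratios have conditional binomial intervals, shares Clopper-Pearson intervals and differences of shares Newcombe intervals. All cover counting error only. Shares were expectations after thinning to 3100 UMIs (stromal) or 1400 UMIs (macrophage), leaving out 54 to 207 and 137 to 567 shallower cells per library. Expected numbers of cells were used as counts in these intervals. A floor of 3 counts per library stood in for 0. With 1 library per group no test was run. Genes with a mean of at least 5 CPM were compared between libraries after adding 5 CPM.

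Named genes were the 8 members and, per list, the 3 genes with the largest ratio between Vehicle and Matrigel-only in either direction. Listed genes needed to state small counts were named as well. Per member, the 5 genes with the largest ratio of Vehicle stromal cells with it over those without were named too. These had at least 50 CPM in the cells with it. The members and lists were chosen with earlier results of these data known. The *Panx3*, *Mmp13* and *Hbb-bs* overlaps, the pairs within groups by *Acan* and the *Spp1* levels without 10 cells were added after values had been seen. So were the other genes named outside that rule. Alternatives changed the mitochondrial limit, doublets (Scrublet in scanpy 1.11.5), the stromal limit, leukocyte-positive stromal cells, scaling (TMM in edgeR 4.0.16, median of ratios in DESeq2 1.42.0), cell weighting, thinning, detection limits, the added CPM, the level filter and the fold. Python 3.11.15, numpy 2.4.6, scipy 1.17.1, pandas 2.3.3 and R 4.3.3 were used, and the scripts were tested on simulated data.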

Additional observations from a re-analysis of the deposited data

Results flagged for a closer look

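*Spp1* moved in opposite directions between Palo and Matrigel-only in the 2 cell classes: its log2 ratio was -0.27 (-0.37 to -0.16) in stromal cells and 2.97 (2.72 to 3.22) in macrophages. The difference between the classes was not tested, since 1 library stood for each group, and by share of cells *Spp1* was higher in Palo in both classes.

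Cells that met neither the stromal nor the macrophage rule numbered 852 in Vehicle, 831 in Matrigel-only and 452 in Palo. They were left out of the comparisons above. In Vehicle they held 6 of the 8 genes above the level in Matrigel-only, by more than counting error or against 0 UMIs. The share of all genes that differed was not computed for these cells, so this count has no background beside it. *Runx2* stood at 97.6 CPM in these Vehicle cells against 39.5 CPM in Matrigel-only and 24.2 CPM in Palo. Its UMIs lay in 115 Vehicle cells, whose leading genes were *Nts*, *Ccl1*, *Klk1* and the basal keratins *Krt5* and *Krt14*. *Spp1* was at 214 CPM in Vehicle, 28.6 CPM in Matrigel-only and 59.0 CPM in Palo, with 82.4% of the Vehicle UMIs in 10 cells. *Alpl* was at 17.9 CPM, from 40 UMIs in 8 cells led by the casein genes *Csn3* and *Csn1s1* and the keratin *Krt8*. *Pth1r* was at 13.9 CPM (11 cells), *Ibsp* at 9.40 CPM (18 cells) and *Sp7* at 7.16 CPM (8 cells), and *Ibsp* and *Sp7* had 0 UMIs in these cells of the other libraries.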

How the results depend on the processing

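No paired analysis was possible because each group had 1 library. The 32 counts of genes by direction were recomputed under the alternatives. Of the 292 values, 277 stayed within 1.5 times the main count and 15 moved. For single genes 400 of 472 values moved by less than their counting error and 72 moved by more. Where the main interval excluded 0, 0 values changed sign. Where it held 0 some did: the *Pth1r* log2 ratio of Vehicle over Matrigel-only in macrophages was 0.55 and reached -0.29. Ratios of levels with 0 UMIs in a library were left out of these values. Counting any difference beyond counting error, not only those past 2-fold, 1 gene was lower in Palo than in Matrigel-only in stromal cells, but 0 were at a stromal limit of 2% and 2 with the mean of single-cell CPM, and in macrophages 0 were, but 1 was with up to 10% mitochondrial UMIs, without the highest Scrublet scores and at stromal limits of 0.5% and 2%. Without thinning, 5 genes in place of 2 had a higher stromal share in Palo than in Matrigel-only. For these counts beyond counting error the share of all genes was not computed. In macrophages 1 gene was past 2-fold in Vehicle over Matrigel-only and 1 in Vehicle over Palo. With 1 CPM added, with no filter or with a limit of 1.5-fold it was 2 in both, and with TMM or median-of-ratios factors it was 0 in Vehicle over Palo. The cause was not tested. These factors shifted all macrophage ratios of Vehicle over Palo by -0.20 and -0.18 (log2) and lowered the share of higher genes among those past 2-fold from 77.4% to 60.5% and 62.1%; for Palo over Matrigel-only they raised it from 39.0% to 61.6%. At 1.5-fold the stromal genes past the limit in Vehicle over Matrigel-only went from 345 to 848 higher and from 731 to 1395 lower. Counts of *Phospho1* and *Bglap*, and of *Alpl* and *Sp7* outside Vehicle, were low. The part of depth in these low counts was not tested, nor was that of shared sequence for *Phospho1* and *Bglap*.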
